A study of Mus musculus with 18 samples.

Results

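The hypoxia response and glycolysis genes were followed as a set of 32 genes, listed by symbol and looked up in a deposited table of 35667 genes, where all 32 were found. The set holds the oxygen-regulated subunits of the hypoxia-inducible factors (HIF), the prolyl hydroxylases that control them, glucose transporters, glycolytic enzymes and other established HIF targets. The rule that picks them in the table uses their symbols and no measured value. The genes themselves were chosen with earlier results of these data known. Counts of them set beside the shares of all genes are therefore descriptions and not independent tests.

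Bulk RNA sequencing (Smart-seq2) covered 18 libraries of mouse liver cells, in 6 groups of 3. Hepatic stellate cells (HSC), the retinoid-storing pericytes of the liver, came from healthy wild-type mice. Intrahepatic cholangiocyte organoids (ICO), grown from bile duct epithelium, carried the red fluorescent tag dTomato. The groups were HSC from co-culture with ICO in Matrigel (day 7), HSC alone in Matrigel (day 7), HSC alone on plastic (day 7), HSC directly after isolation (day 0), ICO from co-culture with HSC (day 7) and ICO alone in Matrigel (day 7). The labels give 1 medium for the cultured cells, with serum, growth factors and nicotinamide, and cells in Matrigel were sorted after 7 days. No age, sex or oxygen setting is given in the labels used here. Whether the 3 libraries of a group stem from different animals or cultures is not stated, so a p-value here reflects the scatter among these libraries, which could be technical.

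HIF is a pair of proteins, an oxygen-regulated alpha subunit (Hif1a or Epas1, also known as HIF-2 alpha) and a constant partner. In the presence of oxygen the prolyl hydroxylases Egln1 and Egln3 mark the alpha subunit for destruction, so its activity is set mainly at the protein and not at the mRNA. When oxygen is short the complex binds DNA at sites with a core such as ACGTG and raises genes for glucose uptake, glycolysis and lactate export. The same enzymes also rise in activated stellate cells and in many growing cells.

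The smallest library held 6907479 counts (co-cultured HSC, replicate 1) and the largest 22158674 (plastic, replicate 2). Levels are given as CPM, counts scaled to a common library size, which are not corrected for gene length. The HSC libraries from Matrigel also held epithelial transcripts that are abundant in ICO, called organoid RNA here. Their share was estimated as the median, over 19 epithelial genes that stayed below 5 CPM in each of the plastic and day 0 libraries, of the level divided by the mean level in ICO of the same culture. In co-cultured HSC this organoid share came to 29.2%, 15.3% and 41.9% for replicates 1, 2 and 3, and in HSC alone in Matrigel to 32.4%, 13.7% and 2.96%. In plastic and day 0 HSC it was at most 0.236%, a low value that the choice of these genes fixed. The labels place HSC alone apart from organoids, and where the epithelial transcripts in those libraries came from was not tested. Stellate RNA in the ICO libraries, measured the same way over 13 stellate genes, was at most 0.562%. The counts of called members in Matrigel HSC are therefore also given after subtraction of the organoid share.

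Of the 32 members, 31 were higher and 1 was lower in co-cultured HSC than in HSC alone in Matrigel. In every case the 3 libraries of one group lay outside the range of the other, which was not counted over all genes. Of all 17020 genes tested, 17.3% were called higher and 13.8% lower, 31.1% in all (edgeR's quasi-likelihood test, Benjamini-Hochberg adjusted p under 0.05). The median log2 fold change was 2.08 over the members and 0.03 over all genes tested. The single member that fell was Epas1.

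**Figure D1:**
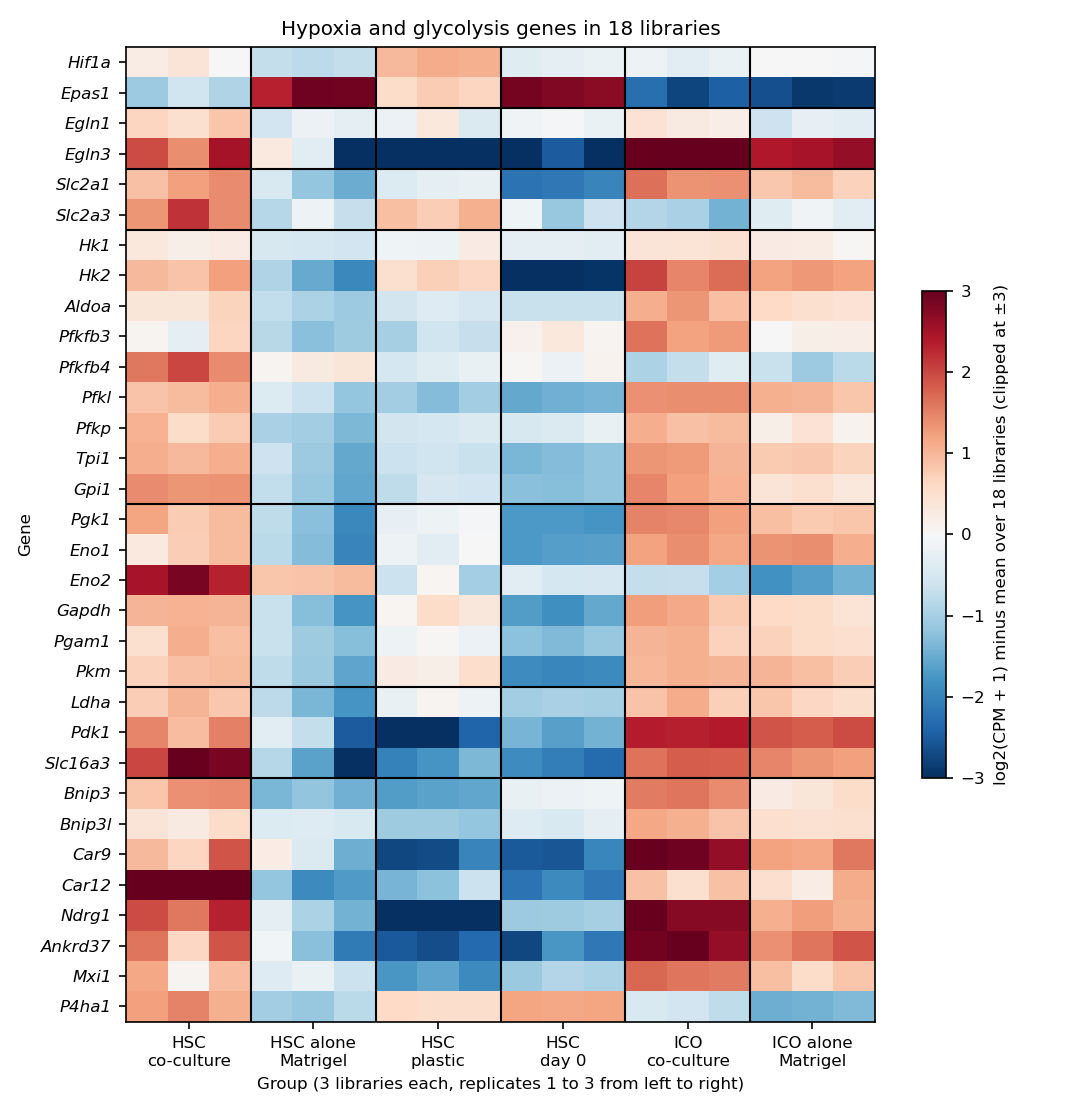
Levels of the 32 members in the 18 libraries, as log2(CPM + 1) minus the gene's mean over all libraries, clipped at ±3. Rows are grouped by role from HIF subunits at the top to other HIF targets at the bottom, and columns run by group. Co-cultured HSC and both ICO groups are red for most rows, HSC alone in Matrigel and day 0 HSC are blue, and Epas1 in the second row has its highest levels in HSC alone and at day 0.

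The HIF subunits moved in opposite directions. Hif1a (ENSMUSG00000021109) had 218.8, 242.5 and 189.8 CPM in co-cultured HSC, against 113.7, 108 and 112.5 CPM in HSC alone in Matrigel. The groups did not overlap, and Hif1a mRNA rose by 1.01 ± 0.11 on the log2 scale (SE, n = 3, edgeR adjusted p = 2.25e-05). Epas1 (ENSMUSG00000024140) had 61.4, 86.5 and 69.7 CPM in co-cultured HSC, against 651, 1005 and 974 CPM in HSC alone. All 3 co-cultured libraries were far below the lowest library of HSC alone, and Epas1 fell by 3.55 ± 0.19 (edgeR adjusted p = 4.67e-08). The Epas1 level divided by the Hif1a level was 0.281, 0.357 and 0.367 in co-cultured HSC, against 5.72, 9.30 and 8.65 in HSC alone. Because the genes differ in length, only the change of this quotient between groups can be read.

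Epas1 is also abundant in endothelial cells, and HSC preparations can hold such cells. The 16 endothelial markers, of which 15 were detected in co-cultured HSC and 16 in HSC alone, had sums of 459 to 695 CPM in co-cultured HSC and of 1759 to 2600 CPM in HSC alone. Among the defining endothelial genes, mean Cdh5 was 0.124 CPM in co-cultured HSC and 0.0440 CPM in HSC alone, mean Pecam1 was 1.39 CPM in co-cultured HSC and 1.87 CPM in HSC alone, and Stab2 was at 0 in every co-cultured library and detected in HSC alone. Macrophage transcripts also differed. All 18 macrophage markers were detected in HSC alone and 16 in co-cultured HSC, where Clec4f and Timd4 were at 0, with sums of 140 to 224 CPM in co-cultured HSC and of 2630 to 3624 CPM in HSC alone. Their part in the results on the members was not tested. In bulk samples, fewer cells of a type and less RNA per cell cannot be told apart.

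Both glucose transporters were higher. Slc2a1 (ENSMUSG00000028645), the widely expressed transporter GLUT1, had 388.5, 499.3 and 563.8 CPM in co-cultured HSC, against 153.5, 94.1 and 74.6 CPM in HSC alone (log2 fold change 2.22 ± 0.22, edgeR adjusted p = 7.07e-06). Slc2a3, the high-affinity transporter GLUT3, was low everywhere, with 8.70, 16.4 and 9.34 CPM in co-cultured HSC, against 1.14, 2.44 and 1.40 CPM in HSC alone. The lowest co-cultured library was above the highest library of HSC alone, and the rise was 2.83 ± 0.44 (edgeR adjusted p = 0.00032). ICO held at most 2.57 CPM of Slc2a3, less than every co-cultured HSC library.

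All 9 genes of the upper, energy-consuming part of glycolysis rose, by 0.83 to 2.59 on the log2 scale with a median of 1.73. Hk2, the inducible hexokinase that commits glucose to the pathway, had 54.9, 50.7 and 65.4 CPM in co-cultured HSC, against 14.2, 8.97 and 6.44 CPM in HSC alone (2.59 ± 0.24, edgeR adjusted p = 3.63e-06). Hk1, the constitutive hexokinase, rose least, by 0.83 ± 0.12 (edgeR adjusted p = 0.000154). The Hk2 level divided by the Hk1 level was thus between 0.444 and 0.550 in co-cultured HSC and between 0.0959 and 0.199 in HSC alone. Gpi1, which turns glucose 6-phosphate into fructose 6-phosphate, rose by 2.52 ± 0.18, and the triose isomerase Tpi1 by 2.14 ± 0.18. The phosphofructokinases Pfkl and Pfkp rose by 1.73 ± 0.16 and 1.98 ± 0.15, and the aldolase Aldoa by 1.44 ± 0.14. The bifunctional enzymes Pfkfb3 and Pfkfb4, which make the activator of phosphofructokinase, rose by 1.32 ± 0.21 and 1.58 ± 0.21.

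All 6 genes of the lower, energy-yielding part rose as well, with a median of 2.02. Pgk1, phosphoglycerate kinase, had 967, 715 and 825 CPM in co-cultured HSC, against 251, 178 and 109.7 CPM in HSC alone (2.27 ± 0.23, edgeR adjusted p = 9.7e-06). Gapdh, the dehydrogenase often used as a reference gene, rose by 2.25 ± 0.23, and the mutase Pgam1 by 1.88 ± 0.18. Pkm, pyruvate kinase, rose by 2.02 ± 0.19, and its splice forms are not separated in counts per gene. Eno2, an enolase known from neurons, had 57.5, 74.2 and 50.8 CPM in co-cultured HSC, against 17.7, 17.9 and 19.4 CPM in HSC alone, and at most 5.53 CPM in any ICO library. Its 3 co-cultured libraries were well above every other library of the series, and the rise was 1.77 ± 0.25 (edgeR adjusted p = 0.000158).

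Eno1, the main enolase, rose by 2.02 ± 0.24, but reads can be divided between it and the near-identical copy Eno1b. Eno1 averaged 1196 ± 267 CPM in co-cultured HSC and 306 ± 118 CPM in HSC alone (SD, n = 3), and Eno1b averaged 2239 ± 415 CPM in co-cultured HSC and 478 ± 196 CPM in HSC alone. With the counts of both summed, an alternative chosen after seeing the data, the rise was 2.19 ± 0.24. The level of Eno1 by itself is uncertain.

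At the end of the pathway, Ldha, the lactate dehydrogenase subunit that favours lactate, had 2679, 3245 and 2825 CPM in co-cultured HSC, against 929, 618 and 474 CPM in HSC alone (2.16 ± 0.21, edgeR adjusted p = 5.09e-06). Pdk1, the kinase that shuts pyruvate out of the mitochondrial oxidation route, rose by 2.36 ± 0.46 (edgeR adjusted p = 0.00316). Slc16a3 (ENSMUSG00000025161), the lactate exporter MCT4, had 147.1, 328.7 and 267.2 CPM in co-cultured HSC, against 19.3, 11.1 and 2.52 CPM in HSC alone. Every co-cultured HSC library was also above both ICO groups, which lay between 114.1 and 129.3 CPM in co-culture and between 85.1 and 101.9 CPM alone. The rise of Slc16a3 was 4.56 ± 0.61 (edgeR adjusted p = 0.000365), and 5.25 without replicate 1 of HSC alone.

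Summed over the 15 glycolytic enzymes of the set, transcripts came to 1.45%, 1.53% and 1.63% of the scaled library size in co-cultured HSC. HSC alone in Matrigel had 0.518%, 0.398% and 0.306%. The scaled library size is the total count times the TMM factor, on which CPM rest. These values are therefore not percents of the total count. Plastic HSC lay between 0.752% and 0.853%, and day 0 HSC between 0.336% and 0.355%. ICO reached 1.67% to 1.97% in co-culture and 1.30% to 1.49% alone. On this scale co-cultured HSC held more than any other HSC group, in the range of organoids cultured alone or slightly above it.

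**Figure D2:**
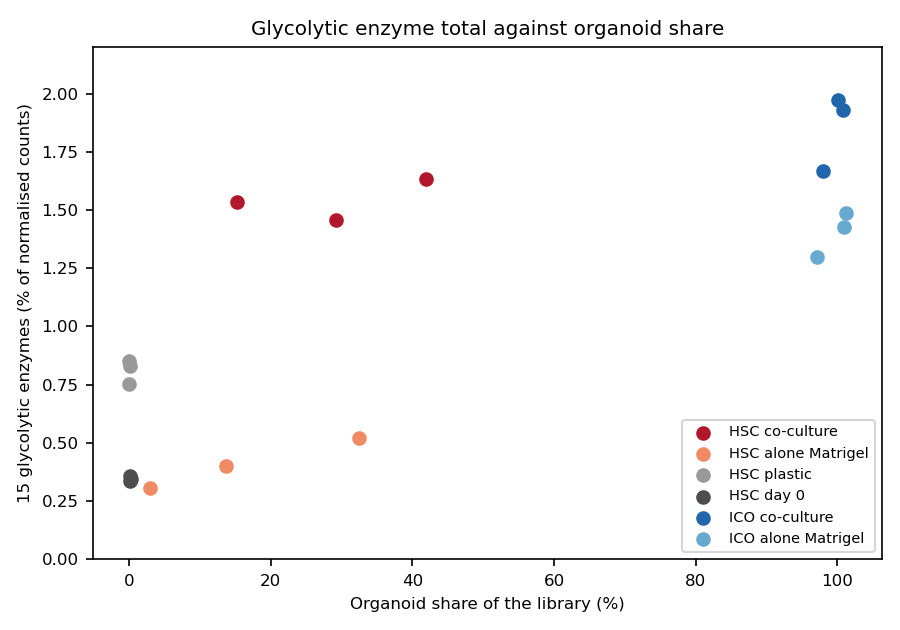
Transcripts of 15 glycolytic enzymes (vertical axis) against the organoid share of the library in percent (horizontal axis), 1 point for each of the 18 libraries. The vertical axis, labelled normalised counts, is in percent of the scaled library size on which CPM rest. Co-cultured HSC lie between 1.45% and 1.63% at organoid shares of 15.3% to 41.9%, and HSC alone in Matrigel between 0.306% and 0.518% at shares of 2.96% to 32.4%.

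All 8 of the other HIF targets rose. Car12 (ENSMUSG00000032373), a membrane carbonic anhydrase that helps to keep pH outside the cell, had 45.1, 64.7 and 49.5 CPM in co-cultured HSC, against 1.27, 0.330 and 0.560 CPM in HSC alone. No other group came near, since ICO held at most 9.90 CPM and plastic HSC at most 2.22 CPM. The rise of 6.25 ± 0.44 was the largest of the set (edgeR adjusted p = 4.11e-07), and it was 6.89 without replicate 1 of HSC alone. Car9, the related enzyme best known as a hypoxia marker, had 12.9, 10.03 and 25.1 CPM in co-cultured HSC, against 7.29, 4.29 and 1.57 CPM in HSC alone. Its rise of 1.93 ± 0.67 was only just called (edgeR adjusted p = 0.0447). It was not called without co-cultured replicate 1 or 3 (adjusted p = 0.0652 and 0.174) or without replicate 2 or 3 of HSC alone (0.124 and 0.11), and over 18 alternatives its adjusted p lay between 0.0215 and 0.768.

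P4ha1 (ENSMUSG00000019916), a subunit of the prolyl hydroxylase that matures collagen, had 594, 713 and 532 CPM in co-cultured HSC, against 122.6, 114.9 and 142.7 CPM in HSC alone (2.32 ± 0.14, edgeR adjusted p = 1.04e-07). Day 0 HSC had 575, 567 and 576 CPM, within the range of co-cultured HSC, and plastic HSC averaged 368 CPM. Among the HSC groups the lowest for this gene was thus HSC alone in Matrigel, and ICO alone were lower still at 94.6 CPM. The mitophagy receptors Bnip3 and Bnip3l rose by 2.63 ± 0.14 and 0.88 ± 0.11. Ndrg1, a stress-responsive gene, had 690, 536 and 891 CPM in co-cultured HSC, against 146.2, 90.9 and 65.7 CPM in HSC alone (2.86 ± 0.40, edgeR adjusted p = 0.000322). Mxi1, an antagonist of MYC, rose by 1.32 ± 0.29. Ankrd37, an ankyrin repeat gene, rose by 2.68 ± 0.59 (edgeR adjusted p = 0.00446), and by 3.60 without replicate 1 of HSC alone.

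Of the oxygen sensors, Egln1 rose by 1.10 ± 0.22 (edgeR adjusted p = 0.00172). Egln3 (ENSMUSG00000035105), itself a HIF target in a feedback loop, had 76.8, 52.2 and 112.4 CPM in co-cultured HSC, against 23.9, 15.03 and 0.560 CPM in HSC alone. The 3 libraries of HSC alone were spread widely, and the rise of 2.68 ± 0.87 was only just called (edgeR adjusted p = 0.0417). It was not called without co-cultured replicate 1, 2 or 3 (adjusted p = 0.0789, 0.0591 and 0.115) or without replicate 2 of HSC alone (0.102), and it was 3.44 without replicate 1 of HSC alone. Over 18 alternatives its adjusted p lay between 9.24e-06 and 0.151.

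**Figure D3:**
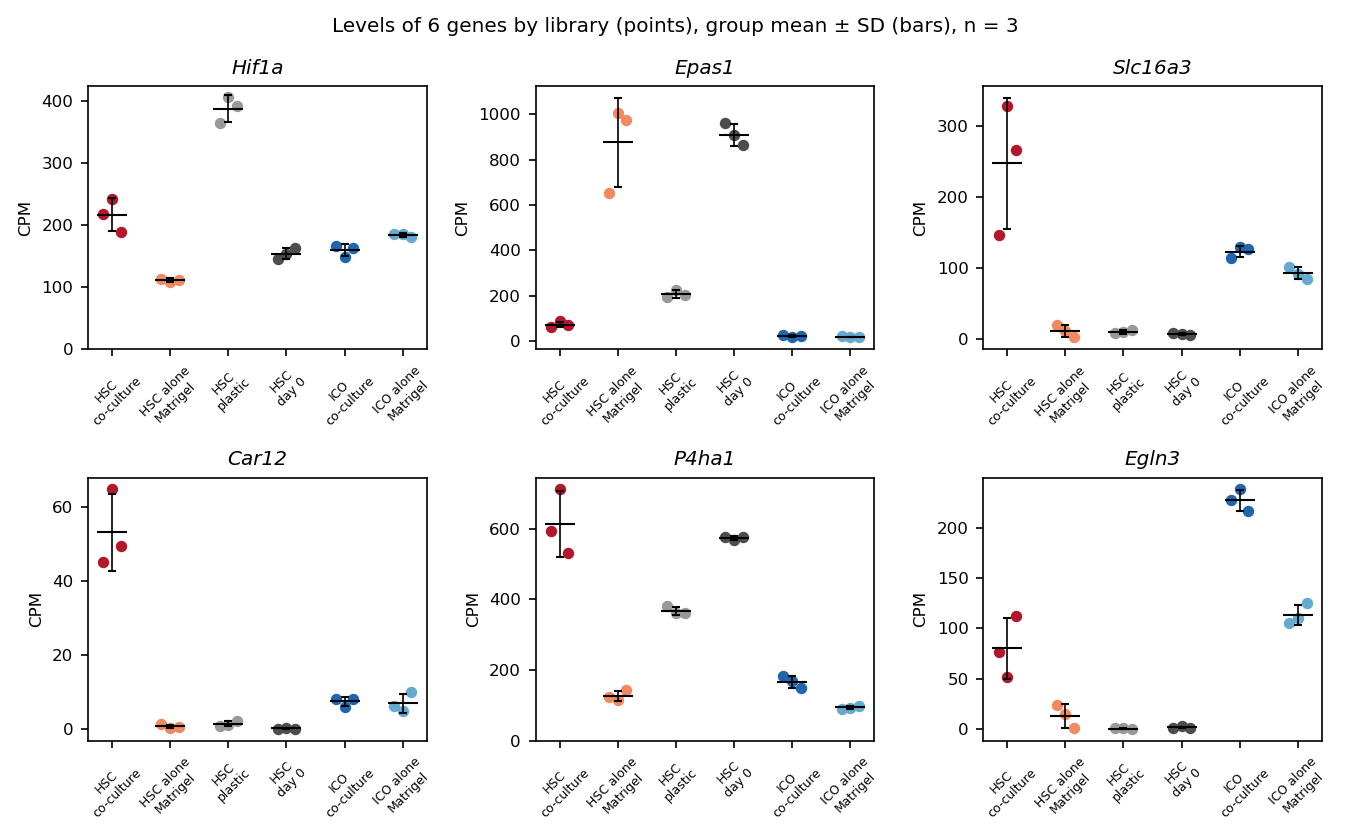
Levels in CPM of Hif1a, Epas1, Slc16a3, Car12, P4ha1 and Egln3 by group, with points for libraries and bars for the mean ± SD (n = 3 per group). Slc16a3 and Car12 are highest in co-cultured HSC, Egln3 is highest in the ICO groups, and Epas1 is high only in HSC alone in Matrigel (651 to 1005 CPM) and at day 0 (864 to 960 CPM).

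The stretches upstream of 5 members show where the form ACGTG of the HIF core lies in some members with little and with much estimated organoid RNA. They are the 250 bases before the RefSeq transcription start, in build GRCm38.p6, written 5′ to 3′ along the gene with ACGTG or its reverse complement CACGT in capitals. Slc16a3, P4ha1 and Car12 are 3 of the rising members with an estimated organoid part of at most 24.5% in any co-cultured library (given after the sequences), and Egln3 and Ankrd37 have an estimated organoid part of over 50% in every co-cultured library.
Slc16a3, chr11:120948817-120949066, plus strand: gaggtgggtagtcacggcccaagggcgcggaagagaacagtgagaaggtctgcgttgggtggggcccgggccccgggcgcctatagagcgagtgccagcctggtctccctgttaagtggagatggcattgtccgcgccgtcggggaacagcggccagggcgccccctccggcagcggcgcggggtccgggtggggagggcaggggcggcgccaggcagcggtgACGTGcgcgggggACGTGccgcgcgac
P4ha1, chr10:59323046-59323295, plus strand: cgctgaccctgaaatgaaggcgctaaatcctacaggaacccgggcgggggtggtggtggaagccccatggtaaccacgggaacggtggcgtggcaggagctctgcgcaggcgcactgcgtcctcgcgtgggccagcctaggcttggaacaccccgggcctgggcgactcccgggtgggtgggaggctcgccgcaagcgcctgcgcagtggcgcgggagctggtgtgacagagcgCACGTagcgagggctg
Car12, chr9:66713436-66713685, plus strand: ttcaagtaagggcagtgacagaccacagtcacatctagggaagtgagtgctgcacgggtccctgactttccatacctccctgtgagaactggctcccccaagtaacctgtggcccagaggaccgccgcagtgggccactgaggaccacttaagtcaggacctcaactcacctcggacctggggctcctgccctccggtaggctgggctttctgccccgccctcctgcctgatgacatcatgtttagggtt
Egln3, chr12:54203875-54204124, minus strand: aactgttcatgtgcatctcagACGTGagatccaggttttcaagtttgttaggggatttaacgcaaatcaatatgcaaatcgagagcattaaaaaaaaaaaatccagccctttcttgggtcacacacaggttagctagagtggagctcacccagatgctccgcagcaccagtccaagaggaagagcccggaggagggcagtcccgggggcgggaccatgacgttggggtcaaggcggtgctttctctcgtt
Ankrd37, chr8:45999851-46000100, minus strand: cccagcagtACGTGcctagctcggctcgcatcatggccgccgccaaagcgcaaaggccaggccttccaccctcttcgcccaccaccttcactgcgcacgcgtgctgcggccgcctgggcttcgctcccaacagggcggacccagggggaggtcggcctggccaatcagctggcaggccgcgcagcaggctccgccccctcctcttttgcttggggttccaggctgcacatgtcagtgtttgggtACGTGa

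Slc16a3 held 2 matches, which began 27 and 14 bases before the start, and P4ha1 held 1 that began 16 bases before it. Ankrd37 held 2, at 241 and 6 bases before the start, Egln3 held 1 at 229 bases, and Car12 held none in this stretch. RefSeq windows of 300 bases (250 before to 50 after the start) were at hand for 28 members, and Slc2a3, Ndrg1, Bnip3l and Epas1 had none in the table. The windows of Eno2 and Pfkfb4, rising members that also had a low organoid part, held no match to ACGTG. Other forms of the HIF core were not searched, so a window without a match may still hold one. The windows of Car9 and Pfkfb3, whose organoid part was also over 50% in every co-cultured library, held ACGTG. At least 1 window of 19 members, or 67.9% of 28, held ACGTG on either strand, against 21.8% of the 27025 genes in the table. Counted by window, 22 of 39 member windows (56.4%) and 19.6% of all 32851 windows held it. These letters are also part of CACGTG, the E-box of MYC and related factors, so a match is a description of the sequence and not a site of binding.

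How much of each member's level in co-cultured HSC the organoid RNA could carry was estimated as the organoid share of the library times the mean level in co-cultured ICO. The estimate assumes that organoid RNA in the HSC libraries was like that of sorted ICO. The median over members of this organoid part was 32.5% in co-cultured HSC. For HSC alone, with the mean level in ICO alone as the reference, it was 46.2%. Some estimates in HSC alone exceeded the measured level, as for Egln3 with a mean of 286%. In co-cultured HSC the organoid part was under 50% in every library for 19 members, over 50% in every library for 4 and on both sides for 9.

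At one end stood 6 members with a mean organoid part under 10%, namely Slc2a3 (2.44%), Eno2 (2.59%), Car12 (4.33%), Pfkfb4 (5.24%), P4ha1 (8.32%) and Epas1 (9.51%). Slc16a3 followed with 16.5 ± 9.68% (SD, n = 3). At the other end, the organoid part averaged 94.6 ± 20.1% for Car9, 79.2 ± 10.9% for Egln3, 78.0 ± 6.53% for Ankrd37 and 64.4 ± 12.5% for Pfkfb3. These 4 genes had higher means in co-cultured ICO than in any other group. For Car9 the estimate was 117% in co-cultured replicate 1, so organoid RNA by itself would have given more than was measured there.

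After subtraction of the organoid share, 29 members were higher and 1 was lower in co-cultured HSC, against 19% higher and 15.4% lower of 16872 genes tested (34.4% in all). The 2 members no longer called were Car9 (log2 fold change 0.48 ± 1.06, edgeR adjusted p = 0.768) and Pkm (3.31 ± 1.42, adjusted p = 0.104), and 30 members were called both before and after. Nothing was left of Pkm in replicate 1 of HSC alone, and its fold was larger than before subtraction. Hif1a was then higher by 1.3603 ± 0.13, P4ha1 by 2.63 ± 0.10 and Gapdh by 3.06 ± 0.14, and Epas1 fell by 3.44. In 22 members the level left in every co-cultured library was above the whole, unsubtracted level of every library of HSC alone. The same was not counted over all genes. For 9 members nothing was left in at least 1 library of HSC alone, and for Egln3 and Slc16a3 nothing was left in any of the 3. A fitted fold after subtraction is no size for them. There the estimated organoid part exceeded the measured level, as at 155% for Pdk1, 152% for Hk2 and 139% for Eno1 in replicate 1. The assumption about organoid RNA did not hold for these values, so folds over HSC alone after subtraction can be too large. With a larger subtraction, the upper quartile of the 19 genes in place of the median, 24 members were higher and 1 lower. This setting, added after seeing the data, left out Ldha, Mxi1, Pfkfb3, Pfkl and Tpi1 besides Car9 and Pkm.

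**Figure D4:**
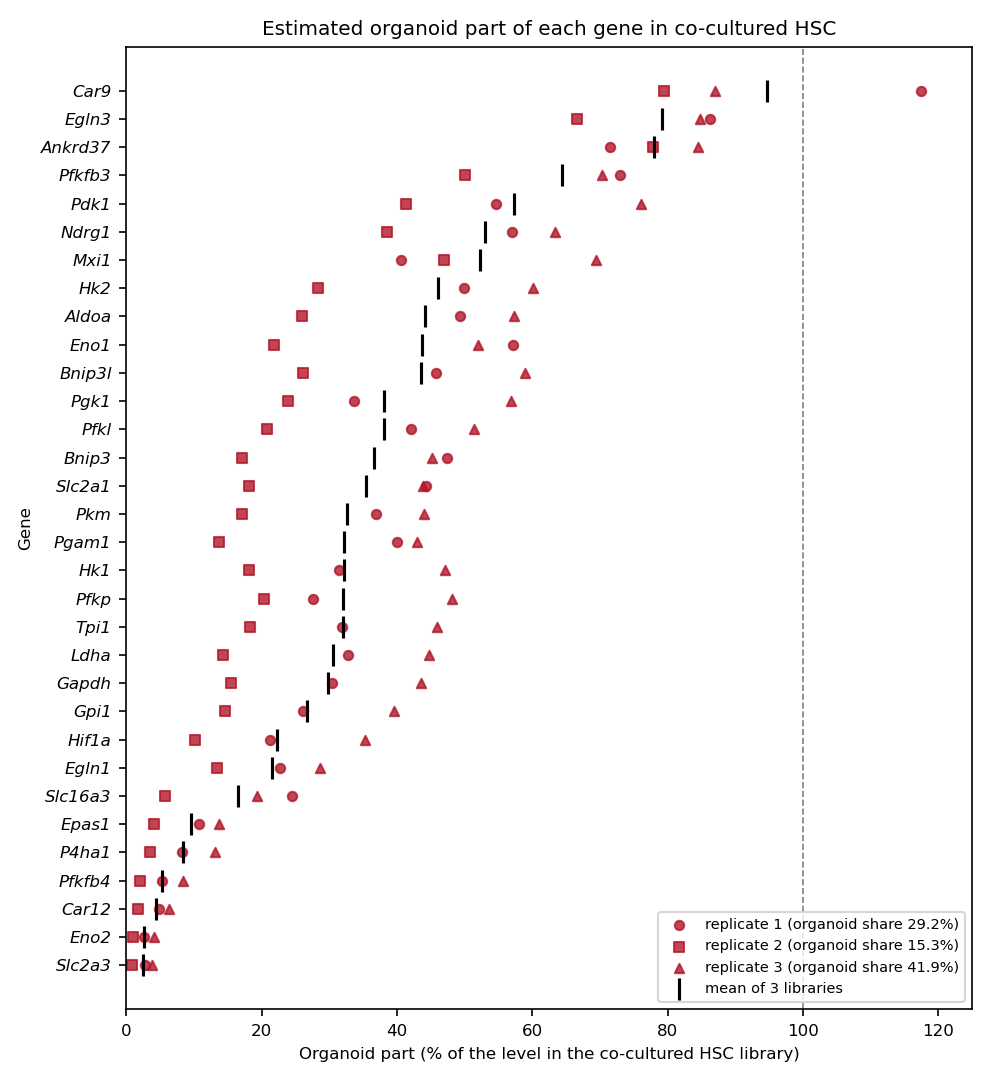
Organoid part of each member in the 3 co-cultured HSC libraries, as percent of the level measured there (horizontal axis), with 1 row per gene and a bar at the mean. Car9, Egln3 and Ankrd37 at the top average 94.6%, 79.2% and 78.0%, whereas Slc2a3, Eno2 and Car12 at the bottom stay under 7% in every library.

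In organoids, the co-culture was compared with ICO alone in Matrigel over 6 libraries with almost no stellate RNA. Of the 32 members, 23 were higher and 0 lower in co-cultured ICO, against 8.59% higher and 7.96% lower, 16.6% in all, of the 13726 genes tested (edgeR's quasi-likelihood test, adjusted p under 0.05). The median log2 fold change was 0.54 over the members and 0.00 over all genes. All 23 were also higher in co-cultured HSC, where 31 of the 32 were. DESeq2 called 23 higher and 1 lower.

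The 8 other HIF targets had a median log2 fold change of 1.00 in organoids, with 7 called higher. The 9 genes of upper glycolysis had 0.49, with 7 called, and the 6 of lower glycolysis 0.44, with 4 called. Ndrg1 had 1666, 1182 and 1195 CPM in co-cultured ICO, against 370.9, 423.5 and 376.2 CPM in ICO alone (1.77 ± 0.13, edgeR adjusted p = 6.23e-08). Car9 had 60.2, 52.9 and 43.1 CPM in co-cultured ICO, against 15.4, 14.7 and 20.4 CPM in ICO alone (1.62 ± 0.16, edgeR adjusted p = 1.6e-06). The groups were clearly apart for both genes, with the lowest co-cultured library more than 2 times the highest library of ICO alone.

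Pfkfb3 rose by 1.27 ± 0.11, Ankrd37 by 1.25 ± 0.15, Bnip3 by 1.13 ± 0.10 and Egln3 by 0.99 ± 0.09 in organoids. Egln3 had 227.2, 238 and 216.7 CPM in co-cultured ICO, against 105.6, 110.2 and 124.9 CPM in ICO alone. Of the glycolytic enzymes, Gpi1 rose by 0.85 ± 0.11, Pfkp by 0.71 ± 0.10, Aldoa by 0.59 ± 0.13 and Pgk1 by 0.54 ± 0.11. P4ha1 rose by 0.81 ± 0.09 and Slc16a3 by 0.39 ± 0.09. The 9 members that were not called included both HIF subunits, with values of -0.22 ± 0.08 for Hif1a (adjusted p = 0.0858) and 0.33 ± 0.16 for Epas1 (0.193). Ldha, Pkm, Eno1, Hk1, Car12, Pfkfb4 and Slc2a3 were the others, between -1.43 for Slc2a3 and 0.23 for Ldha and Hk1.

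A few of the smaller calls in organoids were lost in 1 or more of the fits that left out 1 library. Pgam1 (0.35 ± 0.12, adjusted p = 0.0497) was not called when any 1 of the 6 libraries except co-cultured replicate 3 was left out (0.0854 to 0.175), and Eno2 (1.05 ± 0.31, adjusted p = 0.028) was not called without co-cultured replicate 1 or 2 or ICO alone replicate 1 or 2 (0.0718 to 0.11). Gapdh (0.54 ± 0.13) was lost without co-cultured replicate 1 or ICO alone replicate 3 (0.0659 and 0.0578), Hk2 (0.49 ± 0.12) without co-cultured replicate 1 (0.0629) and Pfkl (0.39 ± 0.10) without ICO alone replicate 3 (0.0708). Over 13 alternatives (12 for Eno2) the adjusted p reached from 0.00497 to 0.175 for Pgam1, 0.0196 to 0.11 for Eno2, 6.72e-06 to 0.0659 for Gapdh, 4.52e-05 to 0.0629 for Hk2 and 0.000124 to 0.0708 for Pfkl.

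**Figure D5:**
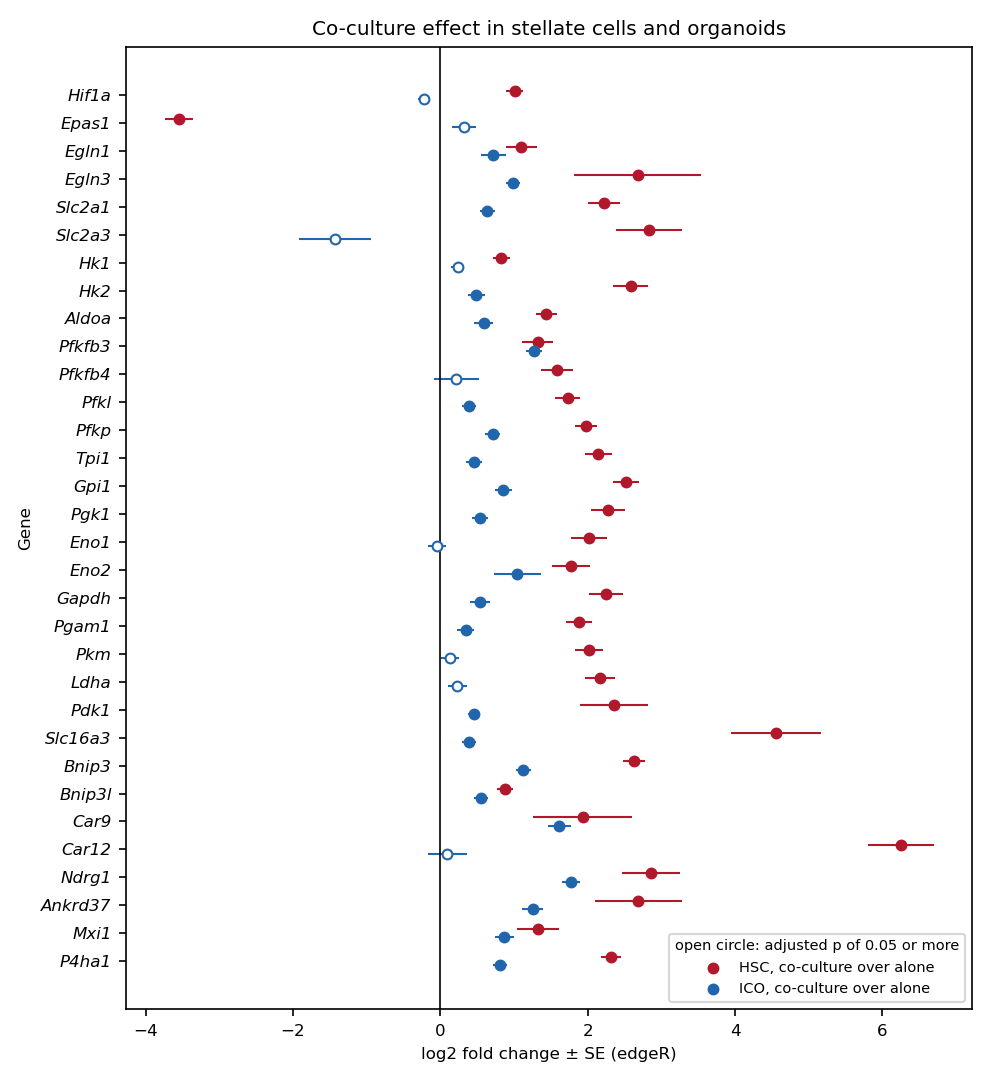
Log2 fold change ± SE of each member in co-culture over culture alone, in HSC (red) and ICO (blue), with filled circles for adjusted p under 0.05 and open circles otherwise. Red circles lie to the right of blue ones for nearly all genes, Epas1 is the only red circle left of 0 at -3.55, and Car12 reaches 6.25 in HSC and 0.09 in ICO.

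The co-culture effect was tested for a difference between the cell types in 1 fit of the 12 Matrigel libraries. It was larger in HSC for 21 members, smaller for Epas1 and not called different for 10, against 9.08% higher and 8.08% lower of 16233 genes tested (17.2% in all). The difference of log2 fold changes was 6.07 ± 0.50 for Car12, 4.16 ± 0.62 for Slc2a3 and 4.06 ± 0.78 for Slc16a3, the largest of the set, and -3.97 ± 0.28 for Epas1. For Car9 it was 0.22 ± 0.63 (edgeR adjusted p = 0.853) and for Pfkfb3 -0.05 ± 0.29 (0.943). After subtraction, 21 were higher and 1 lower, against 12.1% and 9.13% of 16327 genes (21.2% in all), and 17 were called in both. Pgk1, Bnip3, Aldoa, Eno1 and Pkm were then no longer called, although their differences were larger than before, at 2.99, 2.17, 1.03, 3.84 and 3.10. In replicate 1 of HSC alone nothing was left of Bnip3, Eno1 and Pkm. Pgk1 kept 61 counts there, against 1117 and 1556 in replicates 2 and 3, and Aldoa 3275, against 8104 and 12572. Egln3, Ankrd37, Pdk1, Ndrg1 and Eno2 were added to the members called.

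When the cell types were compared directly, HSC alone in Matrigel were lower than ICO alone in 26 members and higher in 4, against 25.8% lower and 30.9% higher of 16233 genes tested (56.7% in all). After subtraction 24 were lower and 4 higher, against 28% and 29.2% of all genes (57.1% in all). The 4 higher members were Epas1 (5.69 ± 0.23), Eno2 (3.00 ± 0.21), Pfkfb4 (1.3580 ± 0.26) and P4ha1 (0.50 ± 0.13). Between the cells of the co-culture, 7 members were lower in HSC and 7 higher, against 15.6% lower and 24% higher of all genes (39.6% in all). After subtraction 9 were lower and 8 higher, against 22.8% and 26.1% of all genes (48.9% in all). Fewer were lower without single libraries, namely 4 without HSC replicate 1, 3 without HSC replicate 2 and 4 without ICO replicate 1, and the calls of Hk2, Car9, Ndrg1 and Mxi1 were among those lost. The 7 higher ones were Slc2a3 (3.83 ± 0.46), Eno2 (3.64 ± 0.20), Car12 (2.87 ± 0.32), Pfkfb4 (2.63 ± 0.26), P4ha1 (1.92 ± 0.14), Epas1 (1.72 ± 0.20) and Hif1a (0.49 ± 0.11). Gapdh and Ldha did not pass the test between HSC and ICO of the co-culture, and the 95% intervals of their log2 differences ran from -0.44 to 0.44 and from -0.42 to 0.41. These comparisons share libraries with those above.

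Across all 6 groups, the mean was highest in co-cultured ICO for 21 members and in co-cultured HSC for 8. It was lowest at day 0 for 12 members, on plastic for 8, in HSC alone in Matrigel for 6, in ICO alone for 5 and in co-cultured ICO for 1. The highest and lowest groups were not counted over all genes, so these counts have no share to be set against.

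Culture on plastic, where stellate cells are known to activate, was next compared with freshly isolated HSC. On plastic 15 members were higher, 8 lower and 9 not called, against 27.5% higher and 30.5% lower of 17020 genes tested (58% in all). In the fit with the organoid share subtracted from the Matrigel libraries, which shares its estimate of the spread, 11 were higher and 6 lower, against 24.9% and 27.2% of all genes (52% in all). The glycolytic enzymes were mostly among the higher members, and the other HIF targets mostly among the lower ones. Hk2 had 38.4, 45.6 and 42.5 CPM on plastic, against 1.80, 2.38 and 2.68 CPM at day 0, and rose by 4.26 ± 0.27 (edgeR adjusted p = 2.98e-08). Pkm rose by 2.30 ± 0.19, Gapdh by 2.07 ± 0.23, Slc2a3 by 2.03 ± 0.44, Slc2a1 by 1.90 ± 0.22, Pgk1 by 1.65 ± 0.23 and Pgam1 by 1.20 ± 0.17.

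Of the 8 other HIF targets, 5 fell and 1 rose on plastic. Ndrg1 had 17.9, 9.51 and 5.59 CPM on plastic, against 82.5, 85.0 and 88.2 CPM at day 0, and fell by 2.89 ± 0.41 (edgeR adjusted p = 0.000113). Bnip3 fell by 1.39 ± 0.14, Mxi1 by 0.88 ± 0.30, Bnip3l by 0.67 ± 0.11 and P4ha1 by 0.57 ± 0.13. Car12 rose by 2.92 ± 0.58 from very low counts, and by 3.64 without day 0 replicate 2. The subunits again moved apart, with Hif1a at 365, 407 and 393 CPM on plastic against 145.9, 153.9 and 163.5 CPM at day 0 (1.39 ± 0.11, edgeR adjusted p = 3.04e-07), and Epas1 at 193, 224 and 205 CPM on plastic against 960, 907 and 864 CPM at day 0. Epas1 fell by 2.07 ± 0.18 (edgeR adjusted p = 4.6e-07). Plastic HSC held the most Hif1a mRNA of all groups.

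The calls of Hk1, Pdk1, Pfkl and Mxi1 on plastic were lost in several of the fits that left out 1 library. Hk1 (0.36 ± 0.12) was not called without plastic replicate 3 or day 0 replicate 1 or 2 (adjusted p = 0.109, 0.0683 and 0.0733). Pdk1 (-1.47 ± 0.48) was not called without plastic replicate 1 or 2 or day 0 replicate 3 (0.0868, 0.089 and 0.06), and Mxi1 not without plastic replicate 1 or 3 or day 0 replicate 2 or 3 (0.0547 to 0.0789). Pfkl (0.40 ± 0.16) was called only with all libraries or without plastic replicate 2, and otherwise had an adjusted p of 0.0626 to 0.185. Over 14 alternatives these 4 genes had adjusted p from 0.00837 to 0.109, 0.000159 to 0.089, 0.0126 to 0.0789 and 0.00185 to 0.185.

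Markers of other cell types differed between day 0 and the cultures. All 25 hepatocyte markers were detected at day 0 and 22 on plastic, where Cps1, F2 and Mug1 were at 0. Their sum ranged from 3.07 to 20.4 CPM on plastic, and day 0 libraries had 30731 to 31972 CPM. All 16 endothelial markers were detected in both, with sums of 1083 to 1275 CPM on plastic and of 7491 to 7660 CPM at day 0. Of the 18 macrophage markers, 14 were detected on plastic, where Clec4f, Marco, Cd5l and Timd4 were at 0, and 18 at day 0, with sums of 121 to 545 CPM on plastic and of 1149 to 1201 CPM at day 0. In HSC alone in Matrigel, where all 25 hepatocyte markers were detected, these had sums of 145 to 341 CPM, and the endothelial and macrophage sums were those given above. Their part in the differences from day 0 was not tested.

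HSC alone in Matrigel were higher than day 0 HSC in 9 members, lower in 5 and not called different in 18, against 19.3% higher and 21.5% lower of all genes tested (40.8% in all). Plastic and Matrigel are set against the same day 0 libraries. In 20 members the 3 libraries of HSC alone ranked as their organoid shares did, which was not counted over all genes. After subtraction only Eno2 was higher and 13 members were lower, against 13.4% higher and 19.8% lower of 16872 genes (33.2% in all). Egln3, Slc16a3, Pdk1 and Ankrd37 were among the 13, and for each nothing was left in at least 1 library of HSC alone. Of the 14 members called before and the 14 called after, 7 were shared.

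Eno2 rose in HSC alone by 1.46 ± 0.26 before and by 1.73 ± 0.26 after subtraction (edgeR adjusted p = 0.000676 and 0.000251). P4ha1 fell by 2.17 ± 0.14 before and by 2.08 after subtraction, and Hif1a fell by 0.47 ± 0.11 before and by 0.66 after. Epas1 in HSC alone did not pass the test against day 0, with a difference of -0.05 ± 0.17 and a 95% interval from -0.38 to 0.29 (edgeR adjusted p = 0.853). In replicate 3 of HSC alone, the library with an organoid share of 2.96%, Hk2 had 6.44 CPM, against 2.68 CPM in the highest day 0 library, and P4ha1 had 142.7 CPM, against 567 CPM in the lowest.

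Some of the increases over day 0 were also no longer called when 1 library was left out. Car12 (1.87 ± 0.64) was not called without replicate 1 of HSC alone or day 0 replicate 1 or 3 (adjusted p = 0.166, 0.119 and 0.107). Egln3 (2.93 ± 0.99) was not called without replicate 1 or 2 of HSC alone or any 1 of the day 0 replicates (0.0751 to 0.137), and Ankrd37 (1.73 ± 0.63) not without replicate 1 or 2 of HSC alone or day 0 replicate 1 or 3 (0.0588 to 0.271). Car9 (3.33 ± 0.81) was 4.26 without day 0 replicate 3. Without replicate 3 of HSC alone, the library with the least organoid RNA, 15 members were higher instead of 9.

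Against plastic, HSC alone in Matrigel were lower in 16 members and higher in 10, against 25.2% lower and 29.9% higher of all genes tested (55% in all). After subtraction they were lower in 19 and higher in 4, against 24.6% and 25.2% of all genes (49.9% in all). Both subunits differed, as Hif1a fell by 1.86 ± 0.12 and Epas1 rose by 2.03 ± 0.18 in Matrigel (edgeR adjusted p = 1.05e-07 and 1.25e-06). After subtraction these were -2.05 ± 0.14 and 2.30 ± 0.13. Lower in Matrigel were also Hk2 (-2.16 ± 0.24), P4ha1 (-1.59 ± 0.14), Gapdh (-1.56 ± 0.23) and Pkm (-1.50 ± 0.18), of which Pkm was not called after subtraction (adjusted p = 0.118). Ndrg1 rose by 3.14 ± 0.41 before and by 1.94 ± 0.37 after subtraction. Slc16a3 did not pass the test (-0.01 ± 0.56). The calls of Tpi1 (-0.46 ± 0.18) and Pfkfb4 (0.64 ± 0.21) were lost in 5 and 4 of the 6 fits that left out 1 library (adjusted p up to 0.116 and 0.101).

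Other genes of the pathway were taken from 2 lists that hold none of the 32 members. Both lists were also chosen with earlier results of these data known, so their counts are no independent test either. Of 50 tested genes of the wider HIF pathway, 26 were higher and 3 lower in co-cultured HSC, against 17.3% and 13.8% of all genes tested. After subtraction 27 were higher and 4 lower, against 19% and 15.4% of all genes. Lox, the enzyme that cross-links collagen, averaged 363 ± 133 CPM in co-cultured HSC and 5.95 ± 3.77 CPM in HSC alone (SD, n = 3, log2 fold change 5.97 ± 0.49, edgeR adjusted p = 8.91e-06). Ak4, a mitochondrial adenylate kinase, rose by 4.07 ± 0.51, and Vldlr, a lipoprotein receptor, by 3.53 ± 0.64. Adm, the vasodilator peptide adrenomedullin, fell by 0.63 ± 0.12, Stbd1, a glycogen-binding protein, by 0.44 ± 0.15 and Egln2, the third prolyl hydroxylase, by 0.38 ± 0.13. Stbd1 was not called after subtraction (edgeR adjusted p = 0.051).

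In organoids 30 of 47 tested genes of that list were higher and 0 were lower, against 8.59% and 7.96% of all genes. Adm averaged 40.9 ± 3.95 CPM in co-cultured ICO and 6.75 ± 1.88 CPM in ICO alone (SD, n = 3 each), and rose by 2.59 ± 0.18 (edgeR adjusted p = 3.94e-08). Stbd1 rose by 1.84 ± 0.14. Both were lower in co-cultured HSC than in HSC alone, as given above.

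The list of other glucose metabolism genes, with further isozymes and the enzymes of glucose production, was mixed in both cell types. In co-cultured HSC 12 of 44 were higher and 8 lower, against 17.3% and 13.8% of all genes tested. After subtraction 9 were higher and 8 lower, against 19% and 15.4% of all genes. Slc16a1, a lactate transporter, rose by 1.87 ± 0.45, Bsg, the chaperone of lactate transporters, by 1.79 ± 0.22 and Aldoc by 1.67 ± 0.39, but Bsg and Aldoc were not called after subtraction (edgeR adjusted p = 0.651 and 0.821). Pdk4 fell by 3.14 ± 0.24, the pyruvate dehydrogenase phosphatase Pdp1 by 2.18 ± 0.16 and Hk3, a hexokinase of myeloid cells, by 3.36 ± 0.53, beside the lower macrophage transcripts given above. In organoids 7 of 33 were higher and 4 lower, against the same 8.59% and 7.96%, with Bsg (1.15 ± 0.14), Txnip, an inhibitor of glucose uptake (1.15 ± 0.14), and Aldoc (1.08 ± 0.09) at the top and Pdp2 (-0.70) at the bottom.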

How the data were processed

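The deposited table holds the authors' estimated counts of each gene, not scaled between libraries. Among the tools and builds in the submitters' processing notes are kallisto 0.46.1 and GRCm39, with no role stated, and the annotation release is not given in the sources used here. Counts were rounded to whole numbers. The row with the higher total was kept where a symbol occurred more than once, as for Aldoa.

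Differences were tested in edgeR 4.0.16 under R 4.3.3, by its robust quasi-likelihood test after TMM scaling and the default low-count filter, and adjusted by Benjamini-Hochberg over all genes tested, with a threshold of 0.05. The 12 HSC libraries, the 6 ICO libraries and the 12 Matrigel libraries were fitted separately. SE is the absolute log2 fold change divided by the square root of F, and CPM used TMM factors over 18 libraries. Epithelial-only genes for the organoid share were 19 of 40 epithelial genes, chosen by means of at least 100 CPM in both ICO cultures and fewer than 5 CPM in each library from plastic or day 0. Subtraction removed share times ICO level from counts, with negative values set to 0. The tests were checked on simulated counts.

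All members are accounted for. From the 2 other lists, up to 3 called genes per direction with at least 10 CPM in the higher group could be named, of which 1 is not reported here. The members and lists were chosen with earlier results of these data known. Alternatives were RLE scaling, DESeq2 1.42.0, other filters, the replicate block, summed duplicates, subtraction or a covariate for the organoid share, fits of 6 libraries and leaving out each library. HSC and ICO of the co-culture share the sample codes D1 to D3, but the labels do not say that a code marks 1 gel. Replicate numbers were not taken as pairs, since in no comparison were all 3 correlations of same-numbered deviations over 0.1.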

Additional observations from a re-analysis of the deposited data

Results flagged for a closer look

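The co-culture effect was tested for a difference between HSC and ICO in 1 fit of the 12 Matrigel libraries (edgeR's quasi-likelihood test, adjusted over all genes), and 22 members passed. Each value is the log2 effect in HSC minus the log2 effect in ICO. The difference was 6.07 for Car12, 4.16 for Slc2a3 and 4.06 for Slc16a3. It lay between 1.40 and 2.00 for Hk2 (2.00), Eno1 (1.96), Ldha (1.84), Pkm (1.79), Pgk1 (1.64), Gapdh (1.62), Tpi1 (1.59), Gpi1 (1.57), Slc2a1 (1.49), Pgam1 (1.44), P4ha1 (1.42) and Bnip3 (1.40). It was smaller for Pfkfb4 (1.27), Pfkl (1.24), Pfkp (1.17), Hif1a (1.13), Aldoa (0.75) and Hk1 (0.50), and negative for Epas1 (-3.97). The calls of Hk1, Aldoa and Pfkfb4 were lost in 6, 8 and 6 of the 12 fits that left out 1 library.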

How the results depend on the processing

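The number of members called stayed within 1.5 times in all comparisons under every alternative run. Leaving out 1 library at a time gave 30 to 32 called members in co-cultured HSC, 19 to 23 in co-cultured ICO, 20 to 22 on plastic, 11 to 20 in Matrigel against day 0, 24 to 27 against plastic and 19 to 25 for the difference of the co-culture effects. With the replicate number as a block, 30 members were called in co-cultured HSC, 21 in co-cultured ICO, 22 on plastic, 11 in Matrigel against day 0, 26 against plastic and 21 for the difference of effects. Between HSC and ICO of the co-culture, whose sample codes match, the block called 14 members, as without it, and changed no member's call. In co-cultured HSC, 24 of 32 members kept their direction and call in all 18 alternatives.

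Results of HSC alone in Matrigel against day 0 changed sign most after subtraction of the organoid share, though not all were called with the new sign. The median share gave -0.39 for Hk2, -2.72 for Pdk1, -0.35 for Car12, -7.52 for Egln3, -2.78 for Ankrd37, -0.10 for Pfkl, -0.72 for Tpi1, -0.48 for Gpi1, -0.55 for Pkm and -9.71 for Slc16a3. Of these, Hk2, Car12, Pfkl and Pkm were not called (edgeR adjusted p = 0.794, 0.816, 0.809 and 0.782). The upper-quartile share, added after seeing the data, gave -0.29 for Slc2a1, -0.64 for Hk2, -4.06 for Pdk1, -0.55 for Car12, -7.50 for Egln3, -5.24 for Ankrd37, -0.42 for Pfkl, -0.76 for Gpi1, -0.66 for Pkm and -9.69 for Slc16a3. With it Slc2a1, Hk2, Car12, Pfkl and Pkm were not called (edgeR adjusted p = 0.73, 0.637, 0.702, 0.805 and 0.74). Against plastic, Pdk1 had -1.25 and -2.60, Egln3 -5.91 and -5.89 and Ankrd37 -2.16 and -4.62 with the median and the upper-quartile share. Not called among these were -1.25, -5.89 and -2.16 (edgeR adjusted p = 0.146, 0.0866 and 0.079). Where nothing is left after subtraction, as for Egln3 and Slc16a3, such a value is no size.

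The number of all genes called in co-cultured HSC was 5290, against 3453 with only the 6 libraries compared. In ICO it was 2272, against 1506 without co-cultured replicate 1 and 1427 without ICO alone replicate 1. For the other glucose metabolism genes, the glycolysis list called 20 in co-cultured HSC, 10 with only the 6 libraries and 13 without replicate 3 of HSC alone. Between the co-cultured cell types it called 19, and 12 without HSC replicate 2. For the difference of effects it called 12, and 7 without HSC alone replicate 3, ICO co-culture replicate 2 or ICO alone replicate 2. The cause was not tested. In co-cultured HSC the largest SEs of the set were those of Egln3 (0.87), Car9 (0.67), Slc16a3 (0.61) and Ankrd37 (0.59).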
